A study of Arabidopsis thaliana with 12 samples.

Results

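The cell wall genes described here are 3 genes of glycosyl hydrolase family 9, GH9B8, GH9B11 and GH9B12, and AT4G18180, a gene for a pectin lyase-like protein. They were taken by gene name among array probes paired with exactly 1 gene, 4 of 692 such probes and of 3439 probes in all. They were chosen by their proline minus water differences on this array, AT4G18180 as 1 of the largest rises and GH9B12 as the family 9 gene that fell, with 2 further genes of that family beside it, so their differences between the groups are given as a description, without a p-value. An expression array was used on total RNA from wild-type Arabidopsis thaliana, ecotype Wassilevskija, with 6 samples from plants given 100 mM proline for 6 h and 6 from plants given water. The purpose stated in the labels is to compare plants whose cells hold a toxic amount of proline with water controls. The labels name no organ, give no duration for water, so that time and proline cannot be told apart, and leave unstated whether a group's samples are different plants, so the spread between samples may be technical.

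Plant cell walls are networks of cellulose fibres tied together by hemicelluloses and embedded in pectin, and growing cells loosen and rebuild them with secreted enzymes. Family 9 glycosyl hydrolases are endo-glucanases, which cut the beta-glucan backbone of cellulose-like chains within the chain. Their class B, to which all 3 genes belong, holds secreted enzymes without the membrane anchor of the class A enzyme KORRIGAN, which works in cellulose synthesis. Pectin lyase-like proteins share a coiled beta-helix fold with enzymes that cut pectin, such as polygalacturonases and pectate lyases; the substrate of the AT4G18180 protein is not stated in the sources used here.

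The deposited values are intensities scaled from 0 to 100, with a median of 0.269 ± 0.068 in proline and 0.177 ± 0.0081 in water (SD, n = 6 each). Proline samples 3 and 4 had the highest medians, 0.361 and 0.35. Levels below are quantile-normalized intensities unless called deposited, and a floor was set at 0.0377, below which 5% of the positive deposited values lie. In each group, numbers 1 and 2 were alike, as were 3 and 4, and 5 and 6. A level of 1 gene is not set against that of another, because each probe has its own brightness. If the RNA came from a mix of cell types, fewer cells of a type and less transcript per cell cannot be told apart.

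AT4G18180, the pectin lyase-like gene, was 9.42 to 11.9 times as high with proline as with water in the 6 pairs of equal replicate number. It stood at 1.52, 1.33, 1.27, 1.13, 1.66 and 1.46 in proline samples 1 to 6, against 0.137, 0.115, 0.134, 0.0949, 0.159 and 0.154 in water samples 1 to 6. The groups lay far apart, with the lowest proline sample, number 4, well above the highest water sample, number 5. The means were 1.39 ± 0.19 in proline and 0.132 ± 0.024 in water (SD, n = 6 each), a log2 difference of 3.41 (SE 0.14) or 10.6-fold. Only 5 of the 3097 tested probes had a larger log2 difference upward, and 1 of the 620 tested probes with 1 gene.

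After quantile normalization, the size of this rise varied little among the samples. Taken between samples of the same number, the log2 difference ran from 3.24 in number 6 to 3.58 in number 4. The pairs of samples stood in the same order in both groups: samples 5 and 6 averaged 1.56 in proline and 0.156 in water, and samples 3 and 4 averaged 1.2 in proline and 0.114 in water. The highest pair of samples in one group was thus the highest in the other, and likewise the lowest. The SD of its log2 level was 0.20 in proline and 0.28 in water, against a median over all tested probes of 0.32 in proline and 0.25 in water.

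In the deposited values AT4G18180 lay between 1.35 and 1.81 in proline and between 0.0822 and 0.133 in water. Set against the median probe of its own sample, it was at 3.86 to 8.49 times that median in proline and at 0.479 to 0.709 times it in water. The lowest of these proline ratios were those of samples 3 and 4, whose medians were highest. On this measure the rise was less even than after quantile normalization. Number 3 stood at 3.9 in proline and 0.633 in water, and number 5 at 8.49 and 0.709. The groups did not overlap on either scale.

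GH9B12, a class B endo-glucanase gene, was 0.41 times as high with proline as with water. It stood at 0.178, 0.183, 0.197, 0.135, 0.152 and 0.0756 in proline samples 1 to 6, against 0.355, 0.37, 0.366, 0.354, 0.336 and 0.367 in water samples 1 to 6. Every proline sample was below every water sample, and proline sample 6 was the lowest. The means were 0.154 ± 0.044 in proline and 0.358 ± 0.013 in water (SD, n = 6 each), a log2 difference of -1.29 (SE 0.20), or 0.41-fold. Of the 3097 tested probes, 2.29% had a larger fall.

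The water samples of GH9B12 were close together and the proline samples less so. Proline samples 1 to 5 lay between 0.135 and 0.197, and sample 6, at 0.0756, widens the proline spread given next. The SD of its log2 level was 0.51 in proline and 0.053 in water, and 4.84% of the tested probes had a smaller SD in water, whereas 75.0% had a smaller SD in proline. Between samples of the same number the log2 difference was -0.99, -1.01, -0.89, -1.39 and -1.14 in numbers 1 to 5 and -2.28 in number 6. Without proline sample 6 the log2 difference was -1.09. As the groups did not overlap, leaving out 1 sample could not change its sign.

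The separation of GH9B12 depended on the scaling. In the deposited values it was at 0.184, 0.189, 0.321, 0.224, 0.14 and 0.0572 in proline samples 1 to 6, against 0.26 to 0.299 in water. Proline sample 3 was above the highest water sample there, and the gene was lower with proline in 5 of the 6 numbers. Set against the median probe of its own sample, GH9B12 was at 0.266 to 0.889 times the median in proline and at 1.46 to 1.61 times it in water, without overlap. The log2 difference was -0.73 in the deposited values, or -1.15 relative to the median of all probes, which was itself 0.41 higher with proline there.

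GH9B11, the class B gene next to GH9B12, showed overlapping groups. It stood at 0.206, 0.197, 0.225, 0.255, 0.14 and 0.0686 in proline samples 1 to 6, against 0.187, 0.207, 0.275, 0.218, 0.196 and 0.159 in water samples 1 to 6. Proline samples 1 to 4 lay within the range of the water samples, and only proline samples 5 and 6 lay below it. The means were 0.182 ± 0.067 in proline and 0.207 ± 0.039 in water (SD, n = 6 each), a log2 difference of -0.28 (SE 0.28). It was higher with proline in 2 numbers and lower in 4.

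The mean difference of GH9B11 came mainly from numbers 5 and 6. Averaged over pairs of samples, the log2 difference was 0.04 in samples 1 and 2, -0.03 in samples 3 and 4 and -0.85 in samples 5 and 6. Without proline sample 6 it was -0.02. In the deposited values the sign turned, to 0.21, with 0.365 and 0.392 in proline samples 3 and 4 and 0.125 and 0.0503 in proline samples 5 and 6, against 0.134 to 0.204 in water. Relative to the median of all probes the deposited difference was -0.21, against -0.25 after quantile normalization. Its log2 SD was 0.70 in proline and 0.26 in water, and 86.4% of the tested probes had a smaller SD in proline.

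GH9B8, the remaining class B gene, was at the lower end of what the table resolves. After quantile normalization it was at the floor in 3 of 6 proline samples, numbers 2, 3 and 4, and in 5 of 6 water samples. Above the floor it stood at 0.0719, 0.0394 and 0.0506 in proline samples 1, 5 and 6 and at 0.0505 in water sample 2. The deposited values were 0.0223 to 0.0632 in proline and 0 to 0.0423 in water, and the groups overlapped. The highest of them, 0.0632 and 0.058, were in proline samples 3 and 4, which fell to the floor after normalization. In the deposited values GH9B8 was higher with proline in 5 numbers and lower in 1. Relative to the median of all probes the deposited log2 difference was -0.11. The log2 difference was 0.17 (SE 0.17) and depends on where the floor is set, so no fold is given. Against the median probe of its own sample it was at 0.0945 to 0.24 times the median in proline and at 0 to 0.246 times it in water.

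**Figure D1:**
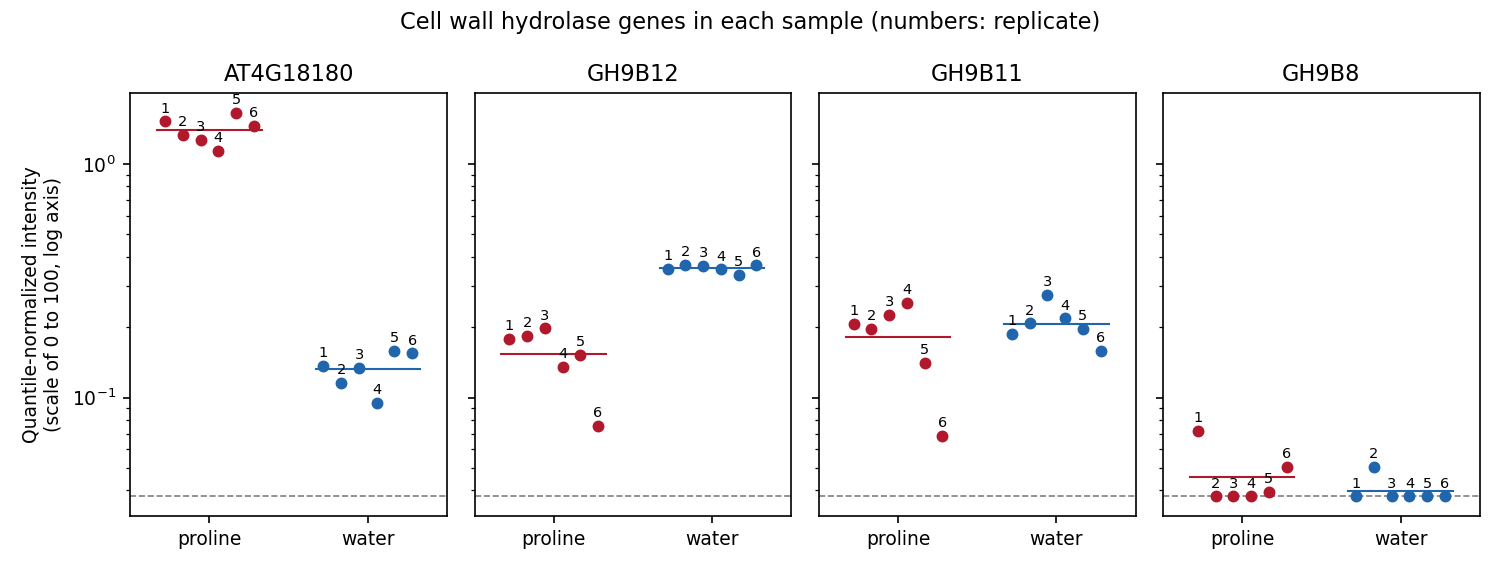
Quantile-normalized intensity (log axis) of the 4 genes in the 6 proline and 6 water samples, each point 1 sample labelled with its replicate number, lines the group means, and the dashed line the floor of 0.0377; levels are to be compared within a panel only. AT4G18180 lies between 1.13 and 1.66 in proline, above all water samples, GH9B12 between 0.0756 and 0.197 in proline, below all water samples, and the groups overlap for GH9B11 and GH9B8.

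**Figure D2:**
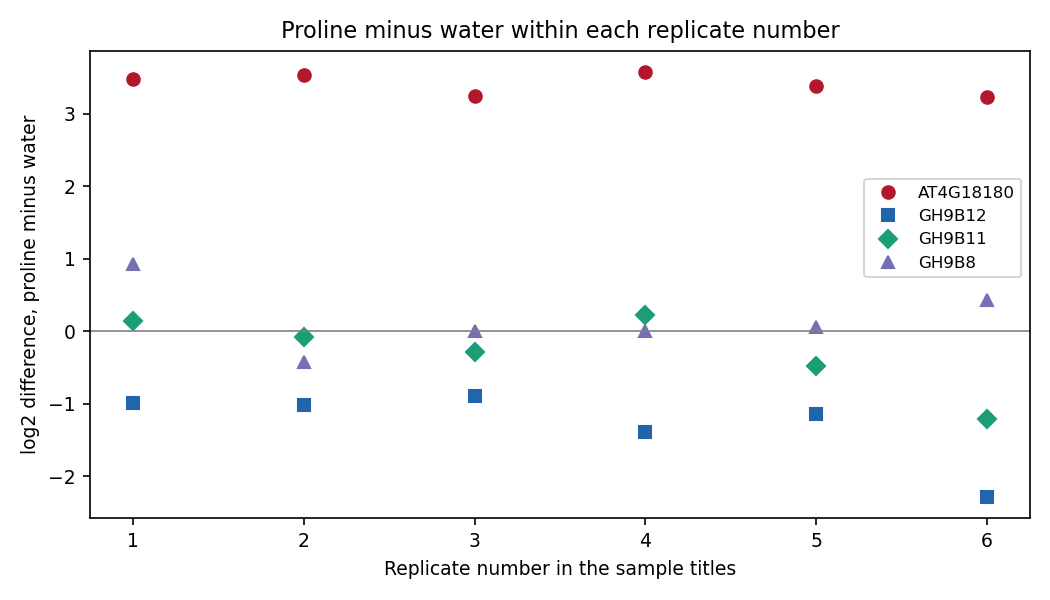
Log2 difference, proline minus water, between samples of the same replicate number for each gene (1 point per number, quantile-normalized values). AT4G18180 stays between 3.24 and 3.58 and GH9B12 is negative in all 6 numbers, while GH9B11 changes sign and is lowest in number 6, at -1.21.

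Across the array, 38.0% of the 3097 tested probes passed the test of proline against water (limma with Benjamini-Hochberg adjustment, threshold 0.05), with 17.1% called higher and 20.9% called lower. Of the 4 genes, 1 was among the higher probes, AT4G18180, and 1 among the lower, GH9B12. The groups did not overlap for 22.5% of the tested probes and for 2 of the 4 genes, the same 2. These counts follow from how the genes were chosen and say nothing further about them. Both were also called when samples 1 and 2, 3 and 4, and 5 and 6 were averaged first. In that setting 530 probes were called, against 1176 with 6 samples a group. As the 2 genes were chosen by their differences, these calls are no further support. GH9B12 was not called in the deposited values, where 38.6% of 3085 probes were called higher and 5.77% lower.

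**Figure D3:**
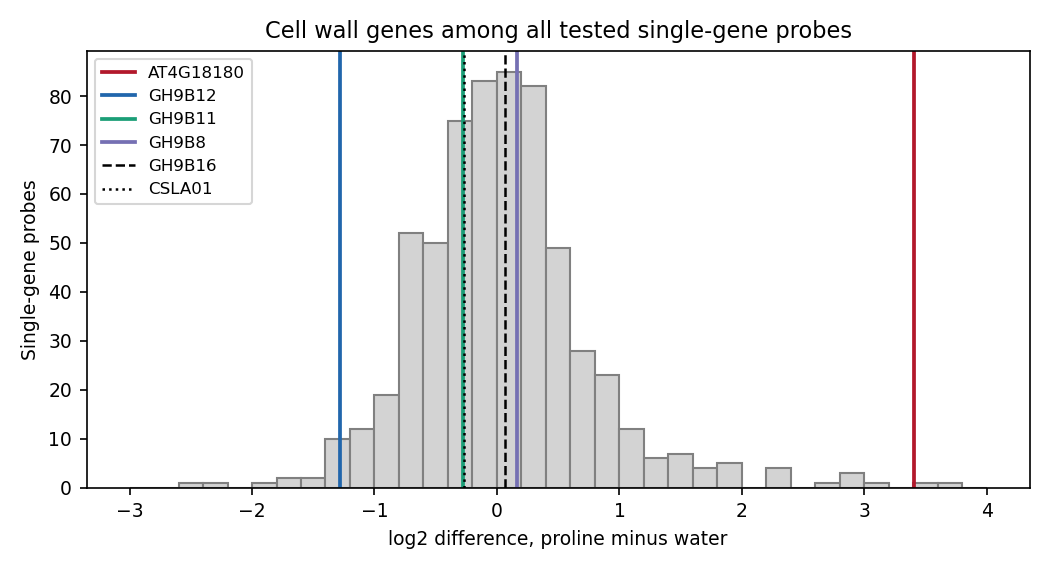
Histogram of the log2 difference, proline minus water, over the 620 tested probes with 1 gene, with vertical lines for the 4 genes and for GH9B16 and CSLA01. AT4G18180 at 3.41 is near the upper end, GH9B12 at -1.29 is in the lower tail, and the other 4 lines lie between -0.28 and 0.17.

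GH9B11 and GH9B12 lie next to each other in the TAIR10.1 annotation, in a run of 4 family 9 genes on chromosome 2 that starts with GH9B9 and GH9B10. A further 7 probes are paired with several genes including family 9 members and were not used. GH9B9 and GH9B10 had no probe of their own and are not analysed here. Neighbouring family 9 genes can be close in sequence, and how far each probe also takes up transcripts of the others was not tested. Of the other genes up to 5 places from any of the 4, 1 had a tested probe of its own, AT2G44530. It was at 0.264 ± 0.024 in proline and 0.296 ± 0.035 in water (SD, n = 6 each), a log2 difference of -0.16 (SE 0.11, limma adjusted p = 0.265).

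After the group means were removed, GH9B11 and GH9B12 varied alike over the 12 samples (Pearson r = 0.79), but r was 0.02 without proline sample 6. The likeness of the neighbours thus rested on 1 library, in which both were lowest. Proline sample 6 was the lowest proline sample for 102 of the 620 tested single-gene probes (16.5%). The other pairs among the 4 genes had r between -0.40 and 0.14 over such deviations. These are descriptions of genes read in the same samples and scaled together.

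Beside the 4 genes, the gene names in the annotation gave 2 cell wall genes with a probe of their own, and neither passed the test (limma; 38.0% of probes did). The annotation held no product descriptions, so a cell wall gene known only by a locus name could not be found. The median log2 difference of the 2 genes was -0.10, against -0.03 over all tested probes. GH9B16, another class B endo-glucanase gene, was at 0.236, 0.214, 0.357, 0.335, 0.235 and 0.275 in proline samples 1 to 6, against 0.23, 0.265, 0.298, 0.267, 0.262 and 0.233 in water samples 1 to 6. The groups overlapped, and proline samples 3 and 4 were highest. Its log2 difference was 0.07 (SE 0.14, adjusted p = 0.738). In the deposited values it was called higher, with a log2 difference of 0.65 (adjusted p = 0.036), or 0.24 relative to the median of all probes.

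CSLA01, a cellulose synthase-like gene of the group that makes mannan backbones, was at 0.0883, 0.121, 0.114, 0.114, 0.123 and 0.0957 in proline samples 1 to 6, against 0.0775, 0.17, 0.12, 0.128, 0.138 and 0.178 in water samples 1 to 6. The proline samples lay within the range of the water samples, and water sample 1 was the lowest of all. The log2 difference was -0.27 (SE 0.19, limma adjusted p = 0.282). Without water sample 1 it was -0.42 and passed the test (limma adjusted p = 0.0341). CSLA01 was not called in the other 11 runs with 1 sample left out. Nor was it called in the deposited values, with the replicate number as a block or with the means of pairs. With 4 family 9 genes measured singly, counting GH9B16, the log2 differences ran from -1.29 for GH9B12 to 0.17 for GH9B8. The GH9B8 value depends on where the floor is set.

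Among the other 619 tested probes with 1 gene, those most like AT4G18180 over the 12 samples were AT5G40030 (Pearson r = 0.99), AT-HF, a gene of histidine synthesis (r = 0.99), and AT3G06200 (r = 0.99). These values are set mainly by the step between the groups: with the group means removed, r was 0.52, 0.54 and -0.15. The 3 genes had log2 differences of 1.29, 1.77 and 2.38. Most like GH9B12 were OTP70, a gene named for organelle transcript processing (r = 0.94), AT1G11730 (r = 0.94) and AT3G51320 (r = 0.94), with log2 differences of -0.64, -0.95 and -0.39. With the group means removed r was 0.75, 0.85 and 0.69.

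GH9B11 was most like UBA1A (r = 0.90), AT1G63610 (r = 0.88) and AT2G32040 (r = 0.87), with log2 differences of -0.72, -0.30 and -0.36. For these the values with the group means removed, 0.91, 0.87 and 0.87, were close to those over the samples as they stand. Spearman's rho was 0.64, 0.72 and 0.82, and without proline sample 6, left out after the data were seen, r was 0.68, 0.76 and 0.77, so part of this likeness rests on that sample. GH9B8, with 8 of its 12 values at the floor, was most like AT4G05490 (r = 0.91), whose probe was above the floor in proline samples 1 and 6 alone. AT3G29185, AT5G46420 and AT3G27180 followed, tied at r = 0.84, and each was above the floor in proline sample 1 alone, so their likeness rests on that 1 sample.

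**Figure D4:**
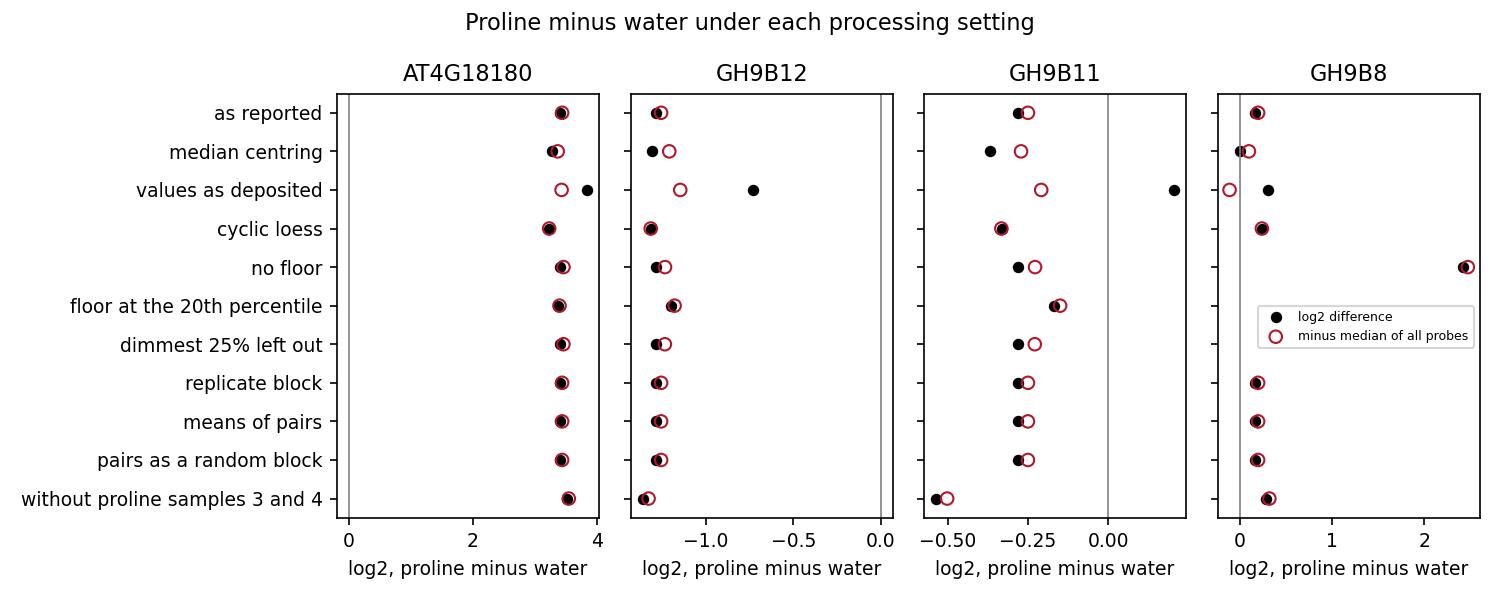
Log2 difference, proline minus water, of each gene under each processing setting (filled points) and the same minus the median of all tested probes (open points); each panel has its own axis, and GH9B8 has no value under 2 settings that remove it. AT4G18180 stays between 3.23 and 3.84 and GH9B12 between -1.36 and -0.73, whereas GH9B11 turns to 0.21 in the deposited values and GH9B8 reaches 2.42 with no floor.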

How the data were processed

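Expression arrays of 12 samples, 6 proline and 6 water, were used, grouped by sample title. The deposited intensity values run from 0 to 100; the authors' scanning, background correction, scaling and array type are not stated in the labels or the table. Probes were named through GEO's platform annotation, which can be old; 690 of 692 single-gene probes matched TAIR10.1, which gave names and the order of neighbouring genes; none of its coordinates are printed, since the authors' build is not stated. Values were quantile-normalized, floored at 0.0377 and log2-transformed. Without the 342 probes that never exceeded the floor, 3097 were tested with limma 3.58.1 (R 4.3.3; lmFit, eBayes, two-sided, Benjamini-Hochberg over all tested probes, threshold 0.05). The fit was tested on simulated data with independent noise in each sample. That simulation left out the likeness of samples within a group, so it cannot show whether too many probes were called. The number of arrays limits the precision.

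The genes, the cell wall list and the alternatives were chosen with earlier results of these data known. Named are the 4 genes, other single-gene family 9 probes, called list genes, neighbours up to 5 places away, and for each gene the 3 probes with the highest Pearson r (4 for GH9B8, where 3 are tied behind the first); CSLA01, not called, was named to complete a count. Deviations of same-numbered proline and water samples correlated at 0.16 to 0.47, above 0.1 for all 6 numbers, so the replicate numbers were taken to pair the samples; the pairing comes from these data, not from the labels. The fit without the block was kept. Alternatives covered scaling, floor, dim probes, replicate block, pairs of samples and left-out samples.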

Additional observations from a re-analysis of the deposited data

Results flagged for a closer look

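Among the 8 groups of 6 values of the 4 genes, and the 2 of GH9B16, 1 value lay far from the rest of its group; chance gives about 1 in 20 groups. GH9B8 stood at 0.0505 in water sample 2, while the other 5 water samples were tied at the floor of 0.0377, which fixes this outcome. Its deposited value there was 0.0423, against 0 to 0.0194 in the other water samples.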

How the results depend on the processing

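Over 10 settings, AT4G18180 stayed higher with proline and was called in all 10, with log2 differences from 3.23 to 3.84, the highest in the deposited values. GH9B12 stayed lower in all 10 and was called in 9. It was at -0.73 in the deposited values, where the median of all probes was 0.41 higher with proline. Both genes were chosen by their differences, so these calls are no further support. Over these settings 530 to 1369 probes of the array were called. GH9B11 was called in none and turned to 0.21 in the deposited values. GH9B8 was called in none, rose to 2.42 with no floor, where the deposited 0 of water sample 6 is set near 0, and gave no value with the floor at the 20th percentile or the dimmest 25% of probes left out. Leaving out 1 sample at a time gave 3.32 to 3.46 for AT4G18180, -1.37 to -1.09 for GH9B12, -0.40 to -0.02 for GH9B11 and 0.03 to 0.24 for GH9B8. The count of called probes, 1176, was 757 with the pairs of samples as a random block, 530 with their means, and 1078 to 1129 without 1 sample. With the replicate number as a block it was 1282, and no call among the 4 genes, GH9B16 and CSLA01 changed. Of the 2 other cell wall genes found by name, 0 were called. In the deposited values 1 was called (GH9B16, higher), and without 1 sample 0 to 1 (CSLA01, without water sample 1). Likeness to the most similar gene moved by more than 0.1 with the group means removed for AT4G18180 (r = 0.52) and GH9B12 (r = 0.75), by Spearman's rho for GH9B11 (0.64) and GH9B8 (0.77), and without proline sample 6 for GH9B11 (r = 0.68). Levels near the floor limit GH9B8.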
